A study of Rattus norvegicus with 6 samples.

Results

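Neurotrophins are secreted growth factors, and the 6 genes described here encode a pair of them and the receptors that bind them: the ligands Bdnf and Ntf3, the tyrosine kinase receptors Ntrk2 and Ntrk3, and the receptors Ngfr and Sort1. They were chosen by gene symbol from the 32883 genes of the count table, all 6 had a row, and 5 of the 6 had enough counts to be tested. The RNA came from the vestibular epithelium of adult male Long-Evans rats, received at 8 to 9 weeks of age. The 3 control rats drank plain water, and the 3 rats of the IDPN-4wk group received IDPN (3,3'-iminodipropionitrile), a nitrile toxic to the hair cells of the inner ear, at 20 mM in their water for 4 weeks. Each library is 1 rat, with its 2 utricles and 6 cristae pooled, so the organs and their regions are not separated, and the nerve fibres and connective tissue that come with the dissection are part of the sample.

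In the inner ear, hair cells and supporting cells make neurotrophins, and the afferent neurons that contact the hair cells depend on them for their growth and survival. Brain-derived neurotrophic factor (the product of Bdnf) binds the receptor TrkB (Ntrk2), and neurotrophin-3 (Ntf3) binds TrkC (Ntrk3). The p75 receptor (Ngfr) binds all mature neurotrophins and, together with sortilin (Sort1), their uncleaved precursors. Sortilin also carries proteins, Bdnf precursor among them, between compartments of the secretory pathway.

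Under exposure, Bdnf, Ntrk2 and Ntrk3 were downregulated, Sort1 was higher by less than the fold threshold, Ngfr did not pass the test and Ntf3 was near or at 0 counts. Bdnf averaged 38.1% of its control level, Ntrk2 45.0% and Ntrk3 58.3%. A gene was called downregulated or upregulated at a Benjamini-Hochberg adjusted p (Padj) under 0.05 in the quasi-likelihood test of edgeR and a fold change over 1.5, with the adjustment over all 14352 genes tested. Of the 5 tested genes, 3 were downregulated and 0 were upregulated, where 6.62% of all tested genes were downregulated and 3.09% upregulated, 9.71% in either direction. At an unadjusted p under 0.05 in edgeR, 1 of the 5 was higher, Sort1, and by DESeq2 and limma-voom 0 were upregulated. Bdnf and Ntrk3 are also on a list of downregulated genes that the study picked partly on these libraries, so their direction here is not independent evidence for that list.

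Depth ranged from 13358678 to 18561991 counts per library, and levels are given as CPM, which are counts relative to a library's total after TMM scaling. Pairs of libraries of the same group differed by more than sampling noise, with a chi-square per degree of freedom from 7.94 to 16.1, and pairs from different groups differed by 29.2 to 59. Of 14 hair cell markers and 10 supporting cell markers, all had counts in every library and passed the filter, which was the check of the tissue label. Over all tested genes, log2-Fold changes had a median of 0.02. With the libraries scaled by their total alone, it was 0.13, and the split of the calls moved from 950 downregulated and 444 upregulated to 780 and 762.

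**Figure D1:**
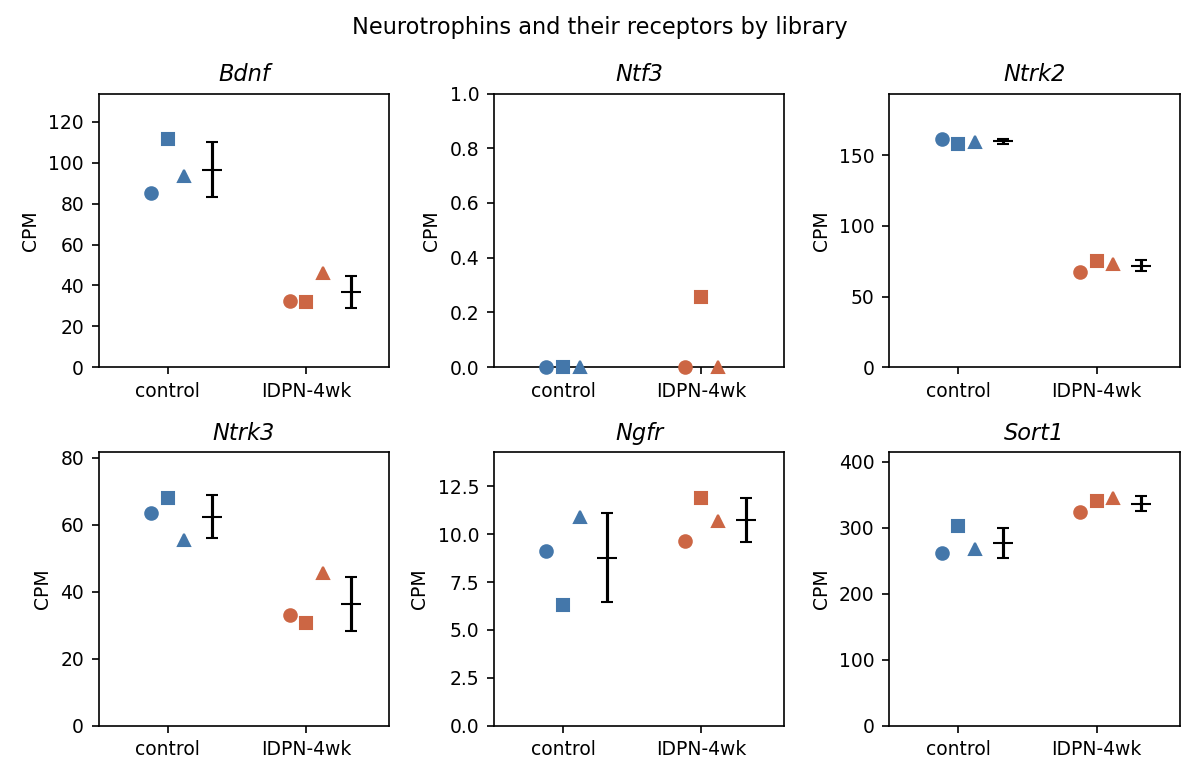
Normalised counts (CPM; each vertical axis starts at 0 and has its own range) of the 6 genes in each library, control in blue and IDPN-4wk in orange, with a circle, square and triangle for replicates 1, 2 and 3. Black marks are the group mean and bars its SD (n = 3), not drawn for Ntf3. The groups are apart for Bdnf, Ntrk2, Ntrk3 and Sort1 and overlap for Ngfr, and Ntf3 had counts in 1 library only.

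Among the ligands, Bdnf (ENSRNOG00000047466) had 1318, 1597 and 1321 counts in the control libraries and 451, 620 and 715 in the IDPN-4wk libraries. Scaled to depth, these were 85.1, 112 and 93.5 CPM against 32.4, 31.98 and 46.0 CPM. Every control library was above every IDPN-4wk library, and the highest treated value belonged to replicate 3. The controls averaged 96.7 ± 13.5 CPM (SD, n = 3) and the IDPN-4wk rats 36.8 ± 7.99 CPM (SD, n = 3). The log2-Fold change was -1.39 with a standard error (SE) of 0.15 and a 95% interval from -1.72 to -1.07 (Padj = 1.36e-04, edgeR). Of all genes tested, 2.21% had a lower log2-Fold change. In RNA from a whole epithelium, fewer cells of a type and less RNA per cell cannot be told apart, and this applies to each gene below.

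Bdnf is transcribed from several start sites, each with a promoter of its own, and gene-level counts sum over all of them. The RefSeq annotation of the rat build GRCr8 gave 6 starts for Bdnf, 3 for Ntf3 and 1 for Sort1. The 250 bases before each start were searched on both strands for the cyclic AMP response element (CRE) TGACGTCA, for the CRE-like letters TCACGTCA, for the shorter site CGTCA, which lies within both, and for the E-box CACGTG. These are letters bound by factors that act on activity-dependent genes, and neuronal activity is known to raise Bdnf transcription. Of the 10 windows, the fourth of Bdnf held the CRE-like letters, 38 to 31 bases before the start, and the shorter site within them, and no other match was found in these windows. Of all 33469 windows in the table, 0.35% held the CRE-like letters, 1.59% the CRE, 18.2% the shorter site and 5.59% the E-box. A match says only that the letters are present. The most upstream Bdnf window, the Bdnf window with the match and the Sort1 window are shown 5′ to 3′ in the direction of transcription, at chr3:116619383-116619632, chr3:116637608-116637857 and chr2:198612245-198612494, all on the plus strand, with the CRE-like letters in capitals. They are printed so that the promoter of the downregulated ligand with the match can be set beside one of the same gene without it and that of a gene that was higher.
Bdnf, window 1: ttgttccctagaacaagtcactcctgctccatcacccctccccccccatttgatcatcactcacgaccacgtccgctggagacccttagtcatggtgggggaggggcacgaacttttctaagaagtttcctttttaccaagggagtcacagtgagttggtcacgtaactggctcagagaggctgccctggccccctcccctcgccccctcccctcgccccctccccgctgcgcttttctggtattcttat
Bdnf, window 4: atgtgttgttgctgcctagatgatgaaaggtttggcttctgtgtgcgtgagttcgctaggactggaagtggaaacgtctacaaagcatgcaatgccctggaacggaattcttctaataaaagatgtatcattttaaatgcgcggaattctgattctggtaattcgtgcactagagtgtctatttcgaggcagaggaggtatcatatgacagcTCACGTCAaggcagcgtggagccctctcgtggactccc
Sort1, window 1: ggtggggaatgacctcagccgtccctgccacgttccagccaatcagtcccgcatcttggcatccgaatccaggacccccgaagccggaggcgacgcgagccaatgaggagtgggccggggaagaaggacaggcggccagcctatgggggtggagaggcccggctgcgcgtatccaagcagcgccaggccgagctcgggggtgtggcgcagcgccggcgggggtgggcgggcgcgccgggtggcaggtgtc

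Ntf3 (ENSRNOG00000019716), the other ligand, was listed at 0 counts in 5 of 6 libraries. The exception was IDPN-4wk replicate 2, with 5 counts or 0.258 CPM. Where nothing was counted, as many as 3 counts remain possible by counting error alone, which corresponds to 0.193 to 0.216 CPM across those 5 libraries. Ntf3 was removed by the filter on low counts, and a difference between the groups was not detectable at this depth.

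Among the receptors, Ntrk2 (ENSRNOG00000018839) had 161, 158 and 160 CPM in the control libraries and 67.4, 75.001 and 73.3 CPM in the IDPN-4wk libraries. The libraries within each group lay close together and the groups did not overlap. The means were 159.8 ± 1.63 CPM (SD, n = 3) and 71.9 ± 4.01 CPM (SD, n = 3). The log2-Fold change was -1.15 (SE 0.07, 95% interval from -1.31 to -0.99, Padj = 8.48e-06, edgeR), and 3.29% of tested genes had a lower one. Ntrk2 encodes a full-length kinase and shorter forms without the kinase, and glia are known to make the shorter forms. The counts sum over these forms, so which of them fell was not measured.

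Ntrk3 (ENSRNOG00000018674) had 63.6, 68.1 and 55.5 CPM in the control libraries and 33.0, 30.5 and 45.6 CPM in the IDPN-4wk libraries. The groups did not overlap, and as for Bdnf the highest treated value was that of replicate 3. The means were 62.4 ± 6.41 CPM (SD, n = 3) and 36.4 ± 8.11 CPM (SD, n = 3), a log2-Fold change of -0.78 (SE 0.14, 95% interval from -1.10 to -0.46, Padj = 0.00379, edgeR). Of all tested genes, 6.54% had a lower log2-Fold change. When the change itself was tested against a fold of 1.5, with glmTreat of edgeR, Ntrk3 was no longer called (Padj = 0.468), while Bdnf (Padj = 0.00194) and Ntrk2 (Padj = 2.06e-04) were.

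Ngfr (ENSRNOG00000005392) had 9.10, 6.29 and 10.9 CPM in the control libraries and 9.63, 11.9 and 10.7 CPM in the IDPN-4wk libraries, and the groups overlapped. The means were 8.76 ± 2.32 CPM (SD, n = 3) and 10.7 ± 1.14 CPM (SD, n = 3). The log2-Fold change of 0.30 (SE 0.21) did not pass the test (Padj = 0.356, edgeR), and its 95% interval ran from -0.16 to 0.76, so that neither a small fall nor a rise of up to 1.69-fold lay outside it. Without control replicate 2, which had the lowest value, the log2-Fold change was 0.11.

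Sort1 (ENSRNOG00000031814) had 261, 302 and 267 CPM in the control libraries and 323, 340 and 345 CPM in the IDPN-4wk libraries. Every IDPN-4wk library was above every control library. The means were 276.6 ± 22.1 CPM (SD, n = 3) and 336 ± 11.4 CPM (SD, n = 3). The log2-Fold change of 0.28 (SE 0.08, 95% interval from 0.11 to 0.45) passed the adjusted p (Padj = 0.0272, edgeR) but, at 1.22-fold, not the fold threshold. Of all tested genes, 7.89% were higher and 11.5% lower by the adjusted p alone. In 5 of the 6 fits that each left out 1 library, Padj was above 0.05, up to 0.107, and only without control replicate 2 did it stay under (Padj = 0.0171).

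Groups that do not overlap were frequent in these libraries: 37.8% of tested genes had them, 19.3% with the IDPN-4wk libraries lower and 18.5% with them higher. Of the 5 tested neurotrophin genes, 4 had them, 3 lower and 1 higher.

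**Figure D2:**
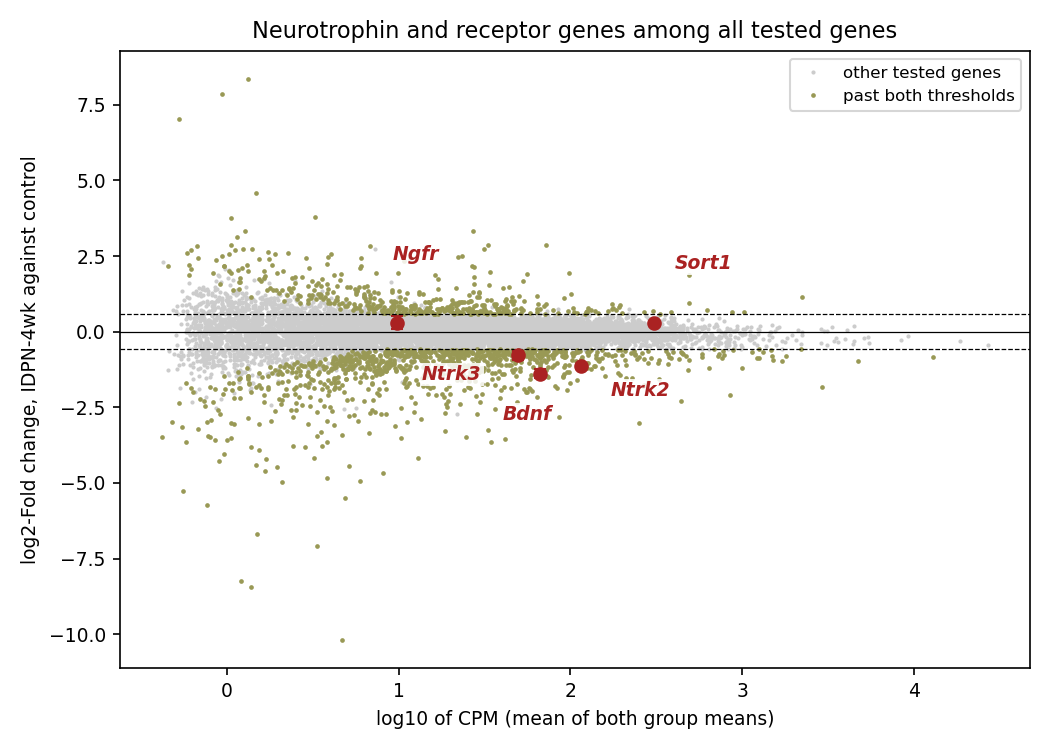
Each point is a tested gene, with log10 of its mean CPM over both groups on the horizontal axis and its log2-Fold change on the vertical axis, and dashed lines at a fold of 1.5 in each direction. The 5 tested neurotrophin genes are in red, with SE bars that are mostly smaller than the points. Bdnf, Ntrk2 and Ntrk3 lie under the lower line, at -1.39, -1.15 and -0.78, and Ngfr and Sort1 lie between the lines.

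Whether a pair of these genes changed by different amounts was asked from the log2 ratio of their CPM within each library. The ratio of Ntrk3 to Ntrk2 averaged -1.36 ± 0.16 (SD, n = 3) for the controls and -1.003 ± 0.307 (SD, n = 3) for the IDPN-4wk rats, a difference of 0.36 with an exact two-sided permutation p of 0.2. The ratio of Bdnf to Ntrk2 differed by -0.25 (exact permutation p = 0.3), and that of Ngfr to Sort1 by 0.04 (exact permutation p = 0.9). After Benjamini-Hochberg adjustment over these 3 ratios the values were 0.45, 0.45 and 0.9, and with 3 libraries against 3 the smallest exact p is 0.1. With each library left out in turn, the difference ran from 0.20 to 0.50 for Ntrk3 to Ntrk2 and from -0.41 to -0.13 for Bdnf to Ntrk2. That for Ngfr to Sort1 changed sign, from -0.24 to 0.24. No pair was shown to differ, in a design that could not have reached 0.05. The ratio of Bdnf to Ntf3 could not be computed with Ntf3 at 0.

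Markers of the cell types in the sample were summed in the same libraries. The summed level of the 14 hair cell markers was 3822 to 3945 CPM in control and from 2449.7 to 2932 CPM in IDPN-4wk libraries, 67.9% of control, with 5 downregulated (Myo7a, Myo15a, Otof, Tmc1 and Loxhd1) and 9 not past both thresholds. The highest of the treated sums was that of replicate 3, which also had the highest treated Bdnf, Ntrk3 and Sort1. The highest treated Ntrk2 and Ngfr were those of replicate 2. Supporting cell markers summed to 10284 to 11278 CPM against 5718 to 7012 CPM, with 3 of 10 downregulated, and the gene with the largest part of that sum was Otog, which encodes a protein of the otoconial membrane and cupula.

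Neuron markers summed to 187 to 206 CPM against 120 to 134 CPM, with means of 198 and 129 CPM. Isl1 was the largest part of that sum, at means of 98.2 and 61.7 CPM without and with exposure. Of the 8 tested, 3 were downregulated (Snap25, Isl1 and Rbfox3) and 2 were upregulated (the neurofilament gene Nefh and Prph, which encodes peripherin). Both rises started from few counts. Nefh went from 12, 5 and 3 to 18, 53 and 25 counts, and Prph from 5, 11 and 8 to 34, 83 and 48. The more abundant neurofilament genes Nefl (35.5 to 26.3 CPM, Padj = 0.0157, edgeR) and Nefm (29.6 to 20.6 CPM, Padj = 0.0158, edgeR) were lower. They passed the adjusted p but not the fold threshold. The ninth marker, Stmn2, had at most 6 counts in a library. Schwann cell markers summed to 8849.9 to 11156 CPM against 5974 to 8926 CPM, ranges that overlap, and 1 of 8 was downregulated (Pmp22). Of the markers of other cells, 1 of 7 of stroma was downregulated and 1 upregulated, 0 of 5 of endothelium were called by edgeR (1 at an unadjusted p under 0.05), 1 of 8 of macrophages was upregulated and 1 of 5 of dark cells and melanocytes was downregulated. The part of these cell types in the levels of the neurotrophin genes was not tested.

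Set against the summed hair cell markers of the same library, Bdnf was lower in IDPN-4wk than in control rats by a log2 ratio of -0.84 and Ntrk2 by -0.59, and for both the groups did not overlap (exact permutation p = 0.1, the smallest that 3 libraries against 3 can give). For Ntrk3 the difference was -0.23 (exact permutation p = 0.2) and the groups overlapped. Sort1 and Ngfr had a higher ratio, by 0.85 and 0.89 (exact permutation p = 0.1 for each). The marker sum itself was at 67.9% of control, and its fall raises every such ratio. Not set against the sum, the log2-Fold change of Sort1 was 0.28, under the fold threshold. That of Ngfr was 0.30 and did not pass the test (Padj = 0.356, edgeR). Benjamini-Hochberg adjustment over the 5 ratios gave 0.2 for Ntrk3 and 0.125 for each of the others. The sum weights its genes by level: Ush1c, which encodes a protein of the hair bundle, was its largest part, at means of 1267 and 1117 CPM without and with exposure, and its log2-Fold change of -0.18 did not pass the test (Padj = 0.0918, edgeR). Of the 14 hair cell markers, whose log2-Fold changes had a median of -0.53, 2 were below Bdnf, Loxhd1 at -1.80 and Tmc1 at -1.41, and 12 were above it, from Otof at -1.19 to Cib2 at 0.02.

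**Figure D3:**
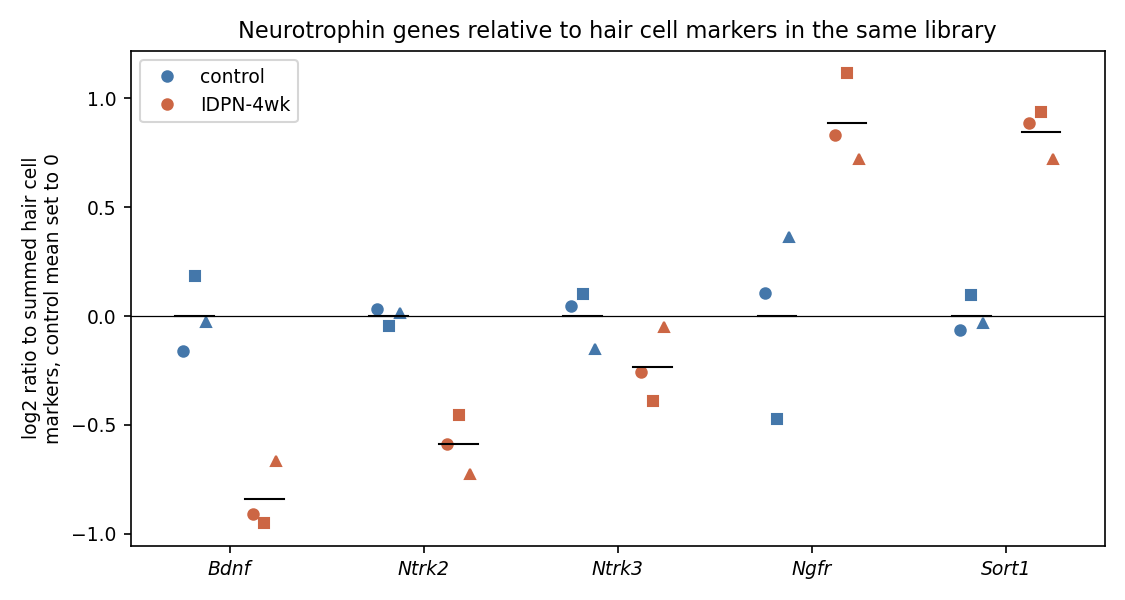
Log2 ratio of the CPM of each gene to the summed CPM of the hair cell markers in the same library, with the control mean of each gene set to 0. Points are libraries (circle, square and triangle for replicates 1, 2 and 3, control in blue, IDPN-4wk in orange) and black lines are group means. The treated means are at -0.84 for Bdnf, -0.59 for Ntrk2 and -0.23 for Ntrk3, and at 0.89 for Ngfr and 0.85 for Sort1. The marker sum itself was at 67.9% of control in the IDPN-4wk libraries.

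Of 74 other genes that act with neurotrophins or in related families, 72 had a row and 56 were tested. Of these, 8 were downregulated and 4 upregulated, 21.4% against 9.71% of all tested genes, and the median of the log2-Fold changes was 0.09 against 0.02. Without IDPN-4wk replicate 1, 7 were called in place of 12. The lists were drawn up with earlier results of these data known.

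**Figure D4:**
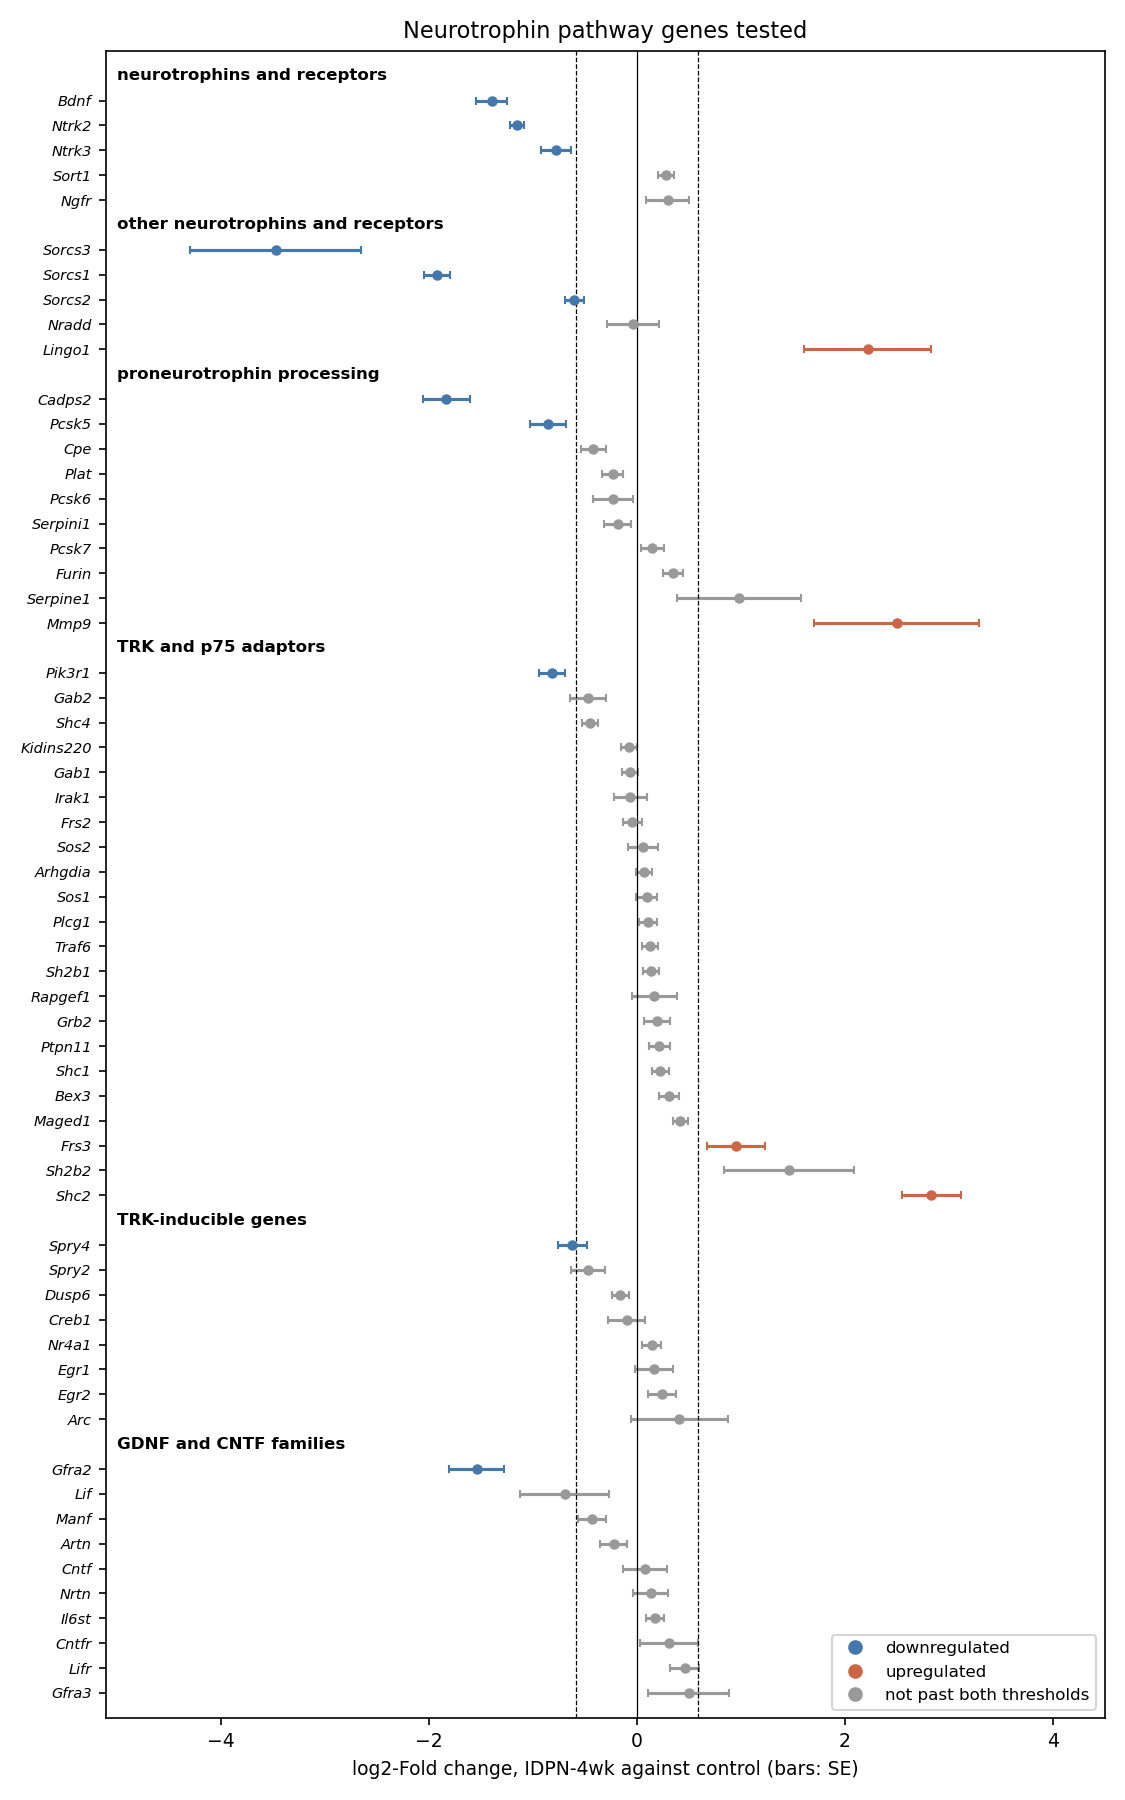
Log2-Fold change of the tested genes of the neurotrophin lists that are reported here, with SE bars, in blue where downregulated, orange where upregulated and grey where not past both thresholds, and dashed lines at a fold of 1.5 in each direction. The change furthest to the left is that of Sorcs3 at -3.47, a value that rests on few counts, and the furthest to the right that of Shc2 at 2.83.

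Among the remaining neurotrophins and their receptors, the SorCS genes were downregulated. They encode relatives of sortilin with the same type of ligand-binding domain, and SorCS2 is a partner of p75 in binding neurotrophin precursors. Sorcs1 had 36.8, 36.3 and 40.4 CPM in control and 11.1, 8.92 and 9.98 CPM in IDPN-4wk libraries, a log2-Fold change of -1.92 (SE 0.12, Padj = 8.88e-06, edgeR). Sorcs2 went from 237 ± 14.6 to 157 ± 18.4 CPM (SD, n = 3), a log2-Fold change of -0.60 (Padj = 0.00127, edgeR), which is just past the fold threshold and was under it with 3 of the 6 libraries left out in turn (without control replicate 2 at -0.56, without IDPN-4wk replicate 1 at -0.56 and without IDPN-4wk replicate 2 at -0.55) and with upper quartile scaling (-0.57) or library size alone (-0.49). Sorcs3 had 21, 19 and 24 counts in control and 0, 0 and 6 counts in IDPN-4wk libraries (Padj = 0.0141, edgeR). Its fitted log2-Fold change of -3.47 rests on few counts: it was -7.51 without IDPN-4wk replicate 3, the treated library with counts, and -2.81 without IDPN-4wk replicate 2. Its call was lost without control replicate 3 (Padj = 0.0524) or IDPN-4wk replicate 1 (Padj = 0.0552).

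Lingo1, which encodes a partner of p75 in the receptor for myelin inhibitors, was upregulated from 1, 3 and 5 counts to 18, 19 and 11 counts (Padj = 0.0273, edgeR). Its call was lost in 4 of the 6 fits that left out a library, those without control replicate 1 or 2 or IDPN-4wk replicate 1 or 2, with Padj from 0.0755 to 0.106. The ligand gene Ntf4 did not pass the filter, its highest count being 16. Of the 6 genes tested in this list, 3 were downregulated and 1 upregulated, with a median of -0.32.

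Neurotrophins are made as precursors that are cleaved by convertases in the cell or by proteases outside it. Of 10 such genes tested, 2 were downregulated and 1 upregulated, and the median of their log2-Fold changes was -0.20. Cadps2, which promotes the release of dense-core vesicles, Bdnf-containing ones among them, had 15.6, 17.7 and 18.9 CPM in control and 3.09, 6.19 and 5.21 CPM in IDPN-4wk libraries (log2-Fold change -1.83, SE 0.23, Padj = 3.35e-04, edgeR). The convertase gene Pcsk5 had 76.9, 74.4 and 71.3 CPM in control and 34.5, 32.7 and 56.5 CPM in IDPN-4wk libraries (log2-Fold change -0.85, Padj = 0.00648, edgeR). In both genes the groups did not overlap. The highest treated value was that of replicate 3 for Pcsk5 and that of replicate 2 for Cadps2.

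The convertase gene Furin went from 59.8 ± 6.23 CPM to 76.1 ± 4.79 CPM (SD, n = 3 each), past the adjusted p (Padj = 0.0240, edgeR) but not the fold threshold. The same held in the other direction for Cpe, which encodes carboxypeptidase E, an enzyme and sorting receptor of the secretory pathway, from 427 ± 51.6 CPM to 319.9 ± 49.4 CPM (SD, n = 3 each, Padj = 0.0302, edgeR). Mmp9, a secreted protease that can cleave the Bdnf precursor, was called upregulated from 3, 0 and 9 counts to 39, 23 and 13 counts (Padj = 0.0484, edgeR). That call was lost without control replicate 1 or 2 or IDPN-4wk replicate 1 or 2 (Padj from 0.0776 to 0.201). Mmp3 and Mmp7 were listed at 0 in all 6 libraries.

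Inside the cell, Trk receptors and p75 signal through adaptors that many other receptors also use. Of 22 tested, 1 was downregulated and 2 were upregulated, and the log2-Fold changes had a median of 0.12. Shc2, an adaptor of the Shc family found in neurons, had 0.969, 2.24 and 1.84 CPM in control and 12.7, 13.1 and 10.1 CPM in IDPN-4wk libraries. The groups were far apart, with a log2-Fold change of 2.83 (SE 0.28, Padj = 9.73e-05, edgeR), and the call held with each library left out. Frs3, a docking protein for Trk receptors, went from 2.02 ± 0.37 to 3.91 ± 0.46 CPM (SD, n = 3), with a log2-Fold change of 0.95 (Padj = 0.0359, edgeR) that lost its call with any 1 of the 6 libraries left out (Padj from 0.0612 to 0.113).

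Pik3r1, the regulatory subunit of phosphoinositide 3-kinase, had 124, 117 and 120 CPM in control and 56.3, 85.1 and 63.8 CPM in IDPN-4wk libraries (log2-Fold change -0.81, SE 0.13, Padj = 0.00147, edgeR). The remaining 19 adaptors were not past both thresholds. By the adjusted p alone, 6 of the 22 passed, Maged1, Bex3 and Shc4 among them. Maged1 was higher, from 501 ± 13.2 to 671 ± 35.0 CPM (SD, n = 3 each, Padj = 0.00221, edgeR), as was Bex3 (Padj = 0.0440, edgeR). Shc4 was lower, from 75.3 ± 3.57 to 55.3 ± 1.06 CPM (SD, n = 3 each, Padj = 0.00241, edgeR).

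Genes that Trk signalling is known to induce gave 1 call among 8 tested, with a median log2-Fold change of 0.02. Spry4, an inhibitor of receptor tyrosine kinase signalling, had 22.1, 29.1 and 22.8 CPM in control and 17.3, 15.4 and 15.6 CPM in IDPN-4wk libraries (log2-Fold change -0.62, SE 0.14, Padj = 0.0101, edgeR). It was under the fold threshold without control replicate 2 (-0.48) or with library size alone (-0.51). Vgf was listed at 0 in all 6 libraries.

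In the GDNF and CNTF families, which also act on neurons of the inner ear, 1 of 10 tested genes was called, with a median log2-Fold change of 0.11. Gfra2, the co-receptor of neurturin, had 5.23, 7.27 and 6.23 CPM in control and 1.73, 2.11 and 2.58 CPM in IDPN-4wk libraries (log2-Fold change -1.54, SE 0.26, Padj = 0.00250, edgeR), and the groups did not overlap. Its ligand gene Nrtn, at 9.37 ± 1.10 CPM without and 10.3 ± 0.82 CPM under exposure (SD, n = 3 each), did not pass the test (Padj = 0.614, edgeR).

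Genes with a profile over the 6 libraries most like that of each neurotrophin gene were found by the root mean square (RMS) difference of log2 CPM, each centred on its own mean, among genes of at least 10 CPM on average. Nearest to Bdnf were Dnah7 (RMS 0.05), which encodes an axonemal dynein, Gphn (0.06), the scaffold of inhibitory synapses, and Crtac1 (0.07). Nearest to Ntrk2 were Map9 (0.08), a microtubule-associated protein, Nox3 (0.08), an oxidase of the inner ear, and Cfap43 (0.10), a protein of the ciliary axoneme. Nearest to Ntrk3 were Cln6 (0.05), Iqub (0.06) and Ap3b2 (0.08), a subunit of the neuronal adaptor complex AP-3.

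These 9 genes were all downregulated, with log2-Fold changes from -1.46 for Crtac1 to -0.74 for Ap3b2, as a profile near that of a downregulated gene must be. Nearest to Ngfr were Snai1 (0.05), Vsig10l (0.07) and MGC95208 (0.09), and nearest to Sort1 were Me1 (0.02), Nat9 (0.04) and Mtcl1 (0.04), and none of these 6 was past both thresholds. The likeness is a description over 6 libraries that share the split between control and treated.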

How the data were processed

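RNA was measured in 6 libraries of rat vestibular epithelium, 3 per group, all with the same batch label and grouped by the treatment label. Each library comes from a separate rat. The animal codes in the sample titles share a prefix among the treated rats that no control has. What it marks is not given in the sources used here, and it cannot be told apart from treatment. The authors made SMART-seq2 cDNA with an oligo-dT primer, aligned reads with STAR 2.5.3a and deposited expected counts per gene from RSEM 1.3.0 (versions from the submitters' processing notes). The protocol keeps no strand, so antisense reads are not separated, and RSEM shares reads among similar genes. There were no molecular identifiers, so the limit given for a count of 0 covers counting error only. The expected counts were whole as deposited, and rounding changed 0 of them.

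The filter filterByExpr, at a minimum count of 10 and 15 in total, left 14352 genes. After TMM scaling, groups were compared in R 4.3.3 by edgeR 4.0.16 (glmQLFit and glmQLFTest, quasi-likelihood). CPM are counts relative to the scaled library total. SEs come from the quasi F statistic. Ratios within a library were compared by an exact two-sided permutation test. Scripts were tested on simulated data. Alternatives were other scalings, no filter or a mean count of 50, DESeq2 1.42.0, limma-voom 3.58.1, adjusted p alone, glmTreat and leaving out each library.

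Named genes were the 6 chosen genes, those of each list past both thresholds, and the 3 nearest profiles of each chosen gene. Ntf4, Furin, Cpe, Mmp3, Mmp7, Maged1, Bex3, Shc4, Vgf, Nrtn and the marker genes were named after their values were seen. The chosen genes and lists were picked with earlier results of these data known. Promoter windows come from RefSeq on GRCr8, and the files' counts were not placed by coordinates. Ntrk2, Ntrk3 and Ngfr had no window in the table. Sorl1, Gfra1, Pecam1 and Dct were not analysed here, because no row was matched to their symbols. Some genes of the lists are counted but not reported here by name.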

Additional observations from a re-analysis of the deposited data

How the results depend on the processing

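No called result changed direction under the alternatives run, and the Ngfr to Sort1 ratio, which was not called, did when a library was left out. Of all genes, 2778 were called by adjusted p alone and 453 by glmTreat, in place of 1394, and leaving out each library gave 1085 to 1581. Of the neurotrophin genes, 4 were called by adjusted p alone (with Sort1) and 2 by glmTreat (without Ntrk3), and 3 in every leave-one-out fit. Of the other pathway genes, 7 to 12 were called with a library left out, in place of 12, the fewest without IDPN-4wk replicate 1. Over these leave-one-out fits the log2-Fold change ranged from -1.60 to -1.28 for Bdnf, from -1.18 to -1.11 for Ntrk2, from -0.99 to -0.67 for Ntrk3, from 0.11 to 0.48 for Ngfr and from 0.24 to 0.35 for Sort1. With library size alone, Sort1 was at 0.39 and Ngfr at 0.40, beside the shift of the median to 0.13. The cause of these changes was not tested, other than fewer libraries or a changed threshold by construction. Depth limits Ntf3, Sorcs3, Lingo1 and Mmp9, all of few counts. Each library is a separate rat and the labels name no pairs between the groups, so no paired analysis was run. The letters that end the animal codes recur in both groups, and what they mark is not given. The replicate numbers used here only name the libraries.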
